A study of Homo sapiens with 16 samples.

Results

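The surrogate chain gene IGLL1, the pre-T cell receptor gene PTCRA and the 6 constant genes of the T cell receptor loci (TRAC, TRBC1, TRBC2, TRDC, TRGC1 and TRGC2) were followed through 16 RNA-seq libraries. They are 8 of the 64252 genes in the count tables, and they were listed by name. The list was chosen by one set of measured values, the fall of IGLL1 with sh-SH2D1A in 6T-CEM, so IGLL1 in the 6T-CEM knockdown comparisons is given as a description, without a test. 6T-CEM and Jurkat are established human T-cell acute lymphoblastic leukaemia lines. 6T-CEM carrying sh-SH2D1A, a short hairpin RNA against SH2D1A, was set against 6T-CEM carrying the control hairpin sh-NC at day 10 and at day 5. Jurkat carrying sh-SH2D1A was set against Jurkat carrying sh-NC at day 10 and at day 8. Each of the 8 groups had 2 libraries, and each line and day had sh-NC libraries of its own. The labels name 1 hairpin against SH2D1A. They do not say from which event the days were counted, whether the cells were clones, or whether the 2 libraries of a group came from separate cultures, so the spread behind each p-value is that of these libraries alone and may be technical.

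A T cell receptor is a pair of chains, alpha with beta or gamma with delta, each with a variable part joined from gene segments and a constant part. The pair reaches the surface only together with the CD3 chains. In immature thymocytes a finished beta chain first pairs with the invariant pre-T alpha chain, the product of PTCRA, and alpha takes its place once the alpha locus has been joined. IGLL1, also called lambda 5, has the matching role in B cell precursors: with VPREB1 it forms the surrogate light chain that pairs with the immunoglobulin heavy chain before a light chain gene is joined. E proteins such as TCF3 and TCF12, which bind the E-box, are known from mice to act at both genes, and ID proteins block them.

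TRBC1 and TRBC2 are near copies, and the first 60 bases of their GENCODE 29 transcripts are shown because reads of the 2 genes are told apart by such positions. Capitals mark the 3 bases that differ between chr7:142791694-142791753 (TRBC1) and chr7:142801041-142801100 (TRBC2), both on the plus strand of GRCh38.
TRBC1: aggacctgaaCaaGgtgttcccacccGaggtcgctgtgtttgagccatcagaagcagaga
TRBC2: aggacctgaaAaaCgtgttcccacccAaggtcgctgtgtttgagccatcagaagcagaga
Of the 711 stretches of 50 bases in TRBC1, 23.5% also occur in TRBC2, and of the 964 in TRGC2, 44.7% also occur in TRGC1. The split of reads between TRBC1 and TRBC2, and between TRGC1 and TRGC2, is therefore uncertain. IGLL1 shares 2.11% of its stretches with IGLL5, an immunoglobulin lambda-like gene, and with IGLC1, a constant gene of the conventional lambda chain, which had at most 1 count and 0 counts in any library.

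The 186 bases that end 65 bases before the RefSeq start of IGLL1 and of PTCRA are shown because IGLL1 and PTCRA are the members with the largest fall and the largest rise among those with over 50 counts in every library. Capitals mark the E-boxes, CANNTG, which reads the same on both strands. The windows are chr22:23580355-23580540 on the minus strand and chr6:42915803-42915988 on the plus strand, GRCh38.p14.
IGLL1: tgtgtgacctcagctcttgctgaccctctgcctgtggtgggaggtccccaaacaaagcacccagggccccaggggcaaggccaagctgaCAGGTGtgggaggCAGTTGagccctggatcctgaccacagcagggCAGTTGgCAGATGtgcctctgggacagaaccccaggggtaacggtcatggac
PTCRA: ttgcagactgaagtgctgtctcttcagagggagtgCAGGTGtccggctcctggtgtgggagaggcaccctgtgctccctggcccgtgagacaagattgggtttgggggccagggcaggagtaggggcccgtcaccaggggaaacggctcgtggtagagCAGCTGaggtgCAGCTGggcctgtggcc
The IGLL1 window holds 4 E-boxes and the PTCRA window 3. Among 35116 promoters of RefSeq, 1.34% hold at least 4 in the same window and 5.52% at least 3. A match of letters does not show that a factor was bound there. IGLL1 and PTCRA were picked for their changes and only this window is given, so these shares test no link between E-boxes and the changes.

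Total counts ran between 27217899 and 33788024 per library, and levels are given as CPM, the counts scaled by library total and TMM. A gene at 0 could hold up to 3 counts, which is 0.0888 to 0.110 CPM by counting error alone. SH2D1A itself had 49.4 to 80.7 CPM in the 8 sh-SH2D1A libraries and 154 to 204 CPM in the 8 sh-NC libraries, with log2 changes between -1.72 and -0.996. Changes were tested with edgeR's quasi-likelihood test, adjusted over all tested genes by Benjamini-Hochberg and called at an adjusted p under 0.05, and SH2D1A was called in all 4 comparisons. Its fall was smallest at 6T-CEM day 10, at -0.996. By the same test that change minus the one at 6T-CEM day 5 was 0.72 ± 0.13 (adjusted p = 0.0181). Minus the one at Jurkat day 10 it was 0.60 ± 0.13 (adjusted p = 0.0405). Knockdown changes compared between these days or lines below thus come from unlike depths of knockdown. The sh-SH2D1A libraries of 6T-CEM at day 5 differed from each other more than the other pairs did: chi-square over its degrees of freedom was 24.6, and 5.01 to 10.2 in the other 7 pairs. None of the 12 T cell markers stayed under 10 counts in all 16 libraries, and their summed level was 1658 to 3692 CPM. The summed level of 12 B cell markers was 23.3 to 67.7 CPM with sh-SH2D1A and 31.2 to 78.3 CPM with sh-NC, of which CD79A alone had 15.2 to 74.0 CPM, while VPREB1, IGHM, IGKC and CD22 stayed under 10 counts in every library. Markers of myeloid, epithelial and erythroid cells summed to at most 5.72 CPM in any library. The 4 natural killer cell markers, of which NCR1 was at 0 in all 16 libraries, summed to 9.21 to 11.03 CPM with sh-SH2D1A and 7.35 to 8.21 CPM with sh-NC in 6T-CEM, and to 0.632 to 1.17 CPM with sh-SH2D1A and 0.127 to 0.181 CPM with sh-NC in Jurkat. The part of these cell types in the results was not tested. Bulk counts cannot separate fewer expressing cells from less RNA per cell.

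IGLL1 (ENSG00000128322, chr22:23573125-23580308, minus strand) was the member with the largest difference between arms in 6T-CEM. At day 10 its 2 libraries with sh-SH2D1A had 38.8 and 39.8 CPM, against 140 and 145 CPM in the libraries with sh-NC. At day 5 they had 47.1 and 43.5 CPM with sh-SH2D1A, against 137 and 131 CPM with sh-NC. The arms did not overlap on either day, and the libraries of an arm lay close together. With 2 libraries per arm, arms can lie apart by chance. The share of all tested genes whose arms did not overlap was not counted, here or below. The log2 change was -1.86 ± 0.04 at day 10 (SE, 2 libraries per arm here and below) and -1.56 ± 0.13 at day 5. These values chose the gene and are given without a test. The gene AP000345.1 overlaps it on the other strand, and it had at most 1 count in a library. The summed B cell markers in 6T-CEM were 23.3 to 35.5 CPM with sh-SH2D1A and 31.2 to 51.1 CPM with sh-NC, and their part in the difference was not tested.

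IGLL1 was also lower with sh-SH2D1A in Jurkat, which the rule of the list does not name, though earlier results of these data were known. At day 10 it had 53.4 and 49.0 CPM with sh-SH2D1A, against 77.8 and 66.7 CPM with sh-NC. At day 8 the values were 30.2 and 30.6 CPM with sh-SH2D1A, against 56.3 and 59.7 CPM with sh-NC. Again no library of one arm reached into the other. The log2 change was -0.49 ± 0.10 at day 10 (adjusted p = 0.0259) and -0.94 ± 0.07 at day 8 (adjusted p = 0.000569). The day 10 call was lost without sh-NC replicate 1, at -0.38 (adjusted p = 0.0904). The change at day 10 minus that at day 8 was 0.44 ± 0.12 (adjusted p = 0.441), so the days were not shown to differ. At day 10 the 6T-CEM change minus the Jurkat change was -1.36 ± 0.12, a description, since it contains the value that chose the gene.

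PTCRA (ENSG00000171611, chr6:42915989-42925835, plus strand), which encodes the pre-T alpha chain, moved the other way in Jurkat. At day 10 it had 63.3 and 55.9 CPM with sh-SH2D1A, against 29.4 and 24.3 CPM with sh-NC. At day 8 it had 26.4 and 29.3 CPM with sh-SH2D1A, against 14.4 and 15.7 CPM with sh-NC. The arms were apart on both days. PTCRA rose by 1.16 ± 0.12 on the log2 scale at day 10 (adjusted p = 0.00076) and by 0.88 ± 0.10 at day 8 (adjusted p = 0.00281).

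In 6T-CEM PTCRA was rare, with 58 to 231 counts in a library. At day 10 it had 6.44 and 6.94 CPM with sh-SH2D1A, against 3.53 and 5.24 CPM with sh-NC. At day 5 the values were 4.94 and 2.26 CPM with sh-SH2D1A, against 2.59 and 2.14 CPM with sh-NC. The arms were apart at day 10 and overlapped at day 5, where the sh-SH2D1A libraries are the pair that differed most. The log2 changes of 0.61 ± 0.22 at day 10 (adjusted p = 0.111) and 0.62 ± 0.41 at day 5 (adjusted p = 0.487) did not pass. Without sh-NC replicate 2 the day 10 change was 0.92 and passed (adjusted p = 0.0329). Without sh-SH2D1A replicate 1 the day 5 change was -0.06 (adjusted p = 0.959). The 6T-CEM change at day 10 minus that of Jurkat was -0.55 ± 0.35 (adjusted p = 0.696), so the lines were not shown to respond differently.

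**Figure D1:**
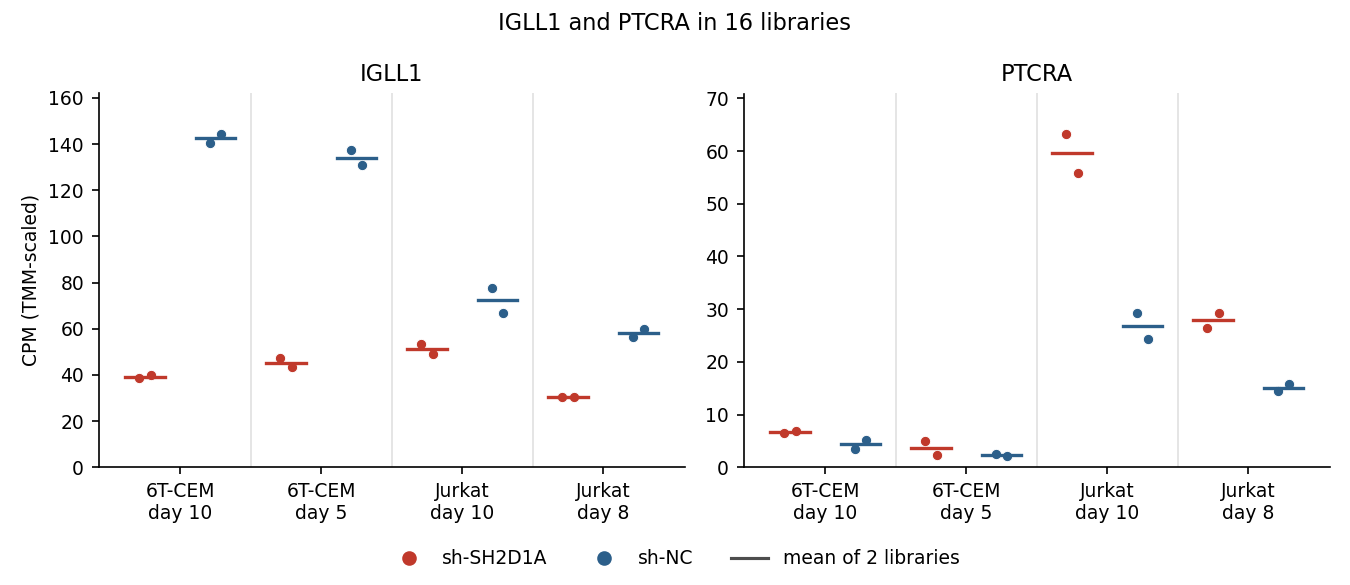
CPM of IGLL1 (left) and PTCRA (right) in each library, by line and day, with sh-SH2D1A in red left of sh-NC in blue and a line at the mean of 2 libraries. IGLL1 in 6T-CEM sits between 38.8 and 47.1 CPM with sh-SH2D1A and between 131 and 145 CPM with sh-NC, and PTCRA is highest in Jurkat with sh-SH2D1A at day 10, at 55.9 and 63.3 CPM.

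TRAC (ENSG00000277734, chr14:22547506-22552154, plus strand), the constant gene of the alpha chain, was lower with sh-SH2D1A in all 4 comparisons and passed in 3. It had 40.2 and 35.4 CPM with sh-SH2D1A, against 63.4 and 63.8 CPM with sh-NC, in 6T-CEM at day 10. At day 5 in that line it had 69.3 and 75.8 CPM with sh-SH2D1A, against 86.0 and 89.3 CPM with sh-NC. No arms overlapped. The log2 change was -0.75 ± 0.07 at day 10 (adjusted p = 0.000323) and -0.26 ± 0.12 at day 5 (adjusted p = 0.323). The day 10 change minus the day 5 change was -0.48 ± 0.13 (adjusted p = 0.111) and passed only with DESeq2 (adjusted p = 0.0311) or without the day 5 sh-SH2D1A replicate 1 (adjusted p = 0.0253).

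In Jurkat at day 10 TRAC had 39.8 and 41.8 CPM with sh-SH2D1A, against 69.4 and 65.9 CPM with sh-NC. At day 8 it had 37.2 and 35.03 CPM with sh-SH2D1A, against 52.4 and 61.5 CPM with sh-NC. The arms were apart on both days. The log2 changes were -0.73 ± 0.09 at day 10 (adjusted p = 0.00212) and -0.67 ± 0.09 at day 8 (adjusted p = 0.00434). The 6T-CEM change at day 10 minus that of Jurkat was -0.02 ± 0.13 (adjusted p = 0.993).

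TRBC1 (ENSG00000211751, chr7:142791694-142793368, plus strand), the first of the 2 constant genes of the beta chain, varied more between replicates than any other member with over 50 counts in every library. In 6T-CEM at day 5 its sh-SH2D1A libraries had 1360 and 1254 counts, against 1294 and 82 counts in the sh-NC libraries. In 6T-CEM at day 10 they had 2900 and 1052 counts, against 3414 and 3612 counts with sh-NC. One day 5 sh-NC library and one day 10 sh-SH2D1A library held far fewer counts than their partners. In Jurkat at day 10 the counts were 10535 and 5006 with sh-SH2D1A, against 5541 and 4367 with sh-NC. In Jurkat at day 8 they were 3936 and 4675 with sh-SH2D1A, against 12440 and 4863 with sh-NC. No TRBC1 change passed by edgeR with both libraries of each arm, with log2 changes of -0.91 ± 0.35, 0.98 ± 0.78, 0.56 ± 0.24 and -0.91 ± 0.38 at 6T-CEM day 10, 6T-CEM day 5, Jurkat day 10 and Jurkat day 8 (adjusted p between 0.132 and 0.569). With 1 library left out the change passed in at least 1 fit of every comparison. It ran between -1.85 and -0.34 at 6T-CEM day 10, where it passed without sh-SH2D1A replicate 1 (adjusted p = 2.69e-07) or replicate 2 (adjusted p = 0.00161), and between 0.09 and 3.95 at 6T-CEM day 5, where it passed without sh-NC replicate 1 (adjusted p = 9.41e-22). In Jurkat it ran between -0.022 and 0.97 at day 10, where it passed without sh-SH2D1A replicate 2 (adjusted p = 3.28e-14), and between -1.46 and -0.02 at day 8, where it passed without sh-NC replicate 2 (adjusted p = 1.19e-05). The TRBC1 value of each comparison thus depended on which library was left out.

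The counts of TRBV28 (ENSG00000211753, chr7:142720660-142721160, plus strand), a variable segment of the same locus, differed in the opposite direction in the 4 replicate pairs that differed most in TRBC1. In 3 of the other 4 pairs the library with more TRBC1 counts also had more TRBV28 counts. Library totals differ, and in CPM this held only in Jurkat day 10 sh-NC. TRBC1 had 194 and 155 CPM there, and TRBV28 had 407 and 360 CPM. TRBV28 had 536 and 2538 counts in the 6T-CEM day 10 sh-SH2D1A libraries where TRBC1 had 2900 and 1052. In the 6T-CEM day 5 sh-NC libraries TRBV28 held 66.7 and 97.7% of the sum of both genes (95% Wilson interval of the second value, 97.1 to 98.1%, for counting error only). Over the 8 libraries of a line this share ran between 15.6 and 97.7% in 6T-CEM and between 16.2 and 72.5% in Jurkat. The GENCODE 29 spans of the genes do not overlap, and no stretch of 50 bases of TRBC1 occurs in TRBV28. How the counting step shared reads between them is not given in the sources used here and was not tested.

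After these counts had been seen, both genes were summed into 1 feature and refitted. In 6T-CEM at day 10 the sum had 106 and 108 CPM with sh-SH2D1A, against 139 and 137 CPM with sh-NC. At day 5 it had 84.8 and 74.2 CPM with sh-SH2D1A, against 132 and 129 CPM with sh-NC. The replicates of the sum lay close together, and the arms were apart. Its log2 change was -0.36 ± 0.04 at day 10 (adjusted p = 0.00044) and -0.71 ± 0.12 at day 5 (adjusted p = 0.0247). The day 5 call was lost without sh-NC replicate 1 (adjusted p = 0.192) or sh-NC replicate 2 (adjusted p = 0.177).

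In Jurkat at day 10 the sum had 521 and 467 CPM with sh-SH2D1A, against 600 and 515 CPM with sh-NC, and the arms overlapped. At day 8 it had 396 and 389 CPM with sh-SH2D1A, against 472 and 534 CPM with sh-NC, and they did not. The log2 change was -0.17 ± 0.09 at day 10 (adjusted p = 0.361) and -0.37 ± 0.06 at day 8 (adjusted p = 0.0106). The day 8 call was lost without sh-SH2D1A replicate 1 (adjusted p = 0.0622) or replicate 2 (adjusted p = 0.0963). In 6T-CEM at day 5 and in Jurkat at day 10 the sum and TRBC1 alone had opposite signs.

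**Figure D2:**
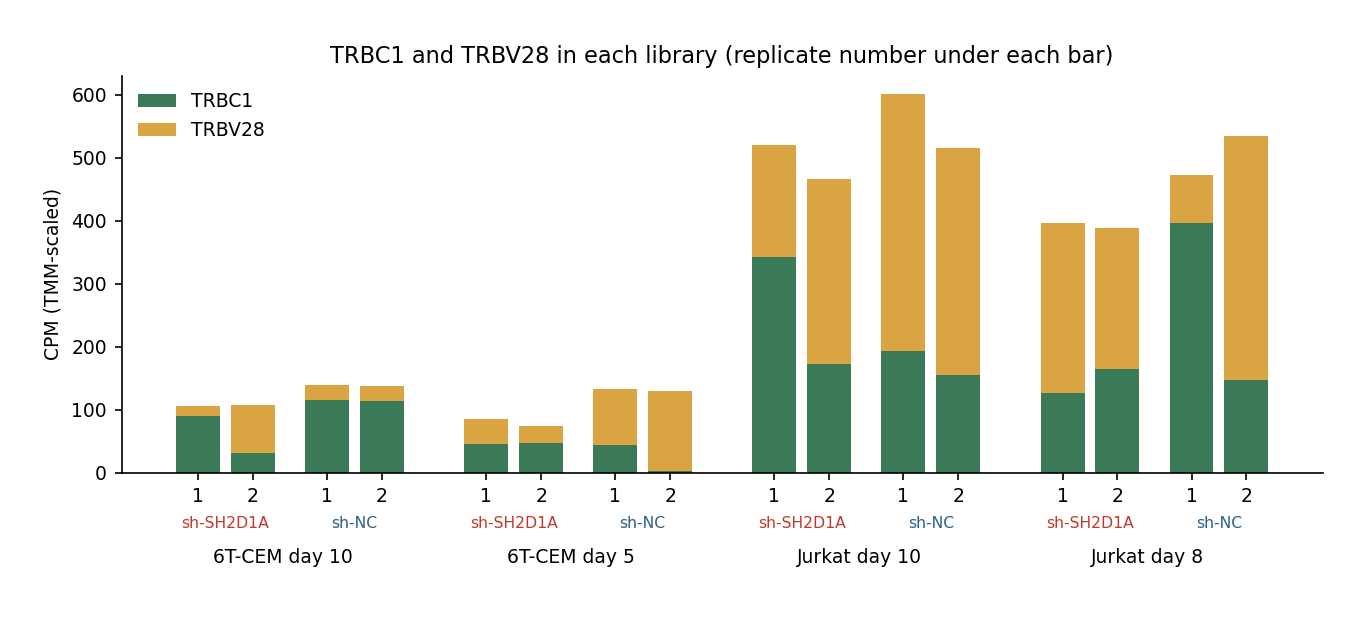
CPM of TRBC1 (green) and TRBV28 (yellow) stacked in each of the 16 libraries, sh-SH2D1A left of sh-NC within each line and day, with the replicate number under each bar. The split between the genes differs between the replicates of several groups, while the height of the bars is alike within a group, for example 106 and 108 CPM in 6T-CEM at day 10 with sh-SH2D1A.

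TRBC2 (ENSG00000211772, chr7:142801041-142802748, plus strand), the second beta constant gene, was steadier. At 6T-CEM day 10 it had 53.8 and 46.2 CPM with sh-SH2D1A, against 37.9 and 41.3 CPM with sh-NC, and it rose by 0.34 ± 0.08 on the log2 scale (adjusted p = 0.0326). That call was lost without sh-NC replicate 1 (adjusted p = 0.102), without sh-SH2D1A replicate 1 (adjusted p = 0.135), with no filter on low counts (adjusted p = 0.168) and with all 16 libraries in the fit (adjusted p = 0.294). At day 5 in 6T-CEM it had 25.5 and 18.6 CPM with sh-SH2D1A, against 17.02 and 22.1 CPM with sh-NC, with overlapping arms. The sum of TRBC1, TRBV28 and TRBC2 at 6T-CEM day 10 was lower with sh-SH2D1A. It had 160 and 154 CPM, against 177 and 179 CPM with sh-NC, and was not tested.

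In Jurkat TRBC2 had 46.9 and 50.3 CPM with sh-SH2D1A at day 10, against 70.7 and 58.4 CPM with sh-NC. At day 8 it had 58.5 and 56.0 CPM with sh-SH2D1A, against 63.1 and 67.5 CPM with sh-NC. Both arms were apart, with the sh-SH2D1A libraries lower. The log2 changes of -0.41 ± 0.11 (adjusted p = 0.0708) at day 10 and -0.20 ± 0.06 (adjusted p = 0.0892) at day 8 did not pass. DESeq2 called the day 10 change (adjusted p = 0.0203), as did edgeR without sh-NC replicate 2 (adjusted p = 0.0157) or without sh-SH2D1A replicate 2 (adjusted p = 0.0376). The 6T-CEM change at day 10 minus that of Jurkat was 0.74 ± 0.21 (adjusted p = 0.154). It passed with DESeq2 (adjusted p = 0.0168) and with only those 4 groups in the fit (adjusted p = 0.0371).

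TRGC2 (ENSG00000227191, chr7:38239580-38249572, minus strand), a constant gene of the gamma chain, had 62 to 271 counts in a library. At 6T-CEM day 10 it had 3.43 and 4.30 CPM with sh-SH2D1A, against 9.12 and 7.85 CPM with sh-NC, and it fell by 1.13 on the log2 scale, with an SE of 0.19 (adjusted p = 0.00626). With no filter on low counts this call was lost (adjusted p = 0.0523). At 6T-CEM day 5 it had 6.75 and 5.24 CPM with sh-SH2D1A, against 7.73 and 8.31 CPM with sh-NC, a change of -0.41 ± 0.26 that did not pass (adjusted p = 0.466). In Jurkat it had 2.04 to 3.23 CPM in the 4 sh-SH2D1A libraries and 2.803 to 3.81 CPM in the 4 sh-NC libraries, with overlapping arms on both days.

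TRGC1 (ENSG00000211689, chr7:38257879-38265678, minus strand), its near copy, had 2 to 55 counts in a library. At 6T-CEM day 10 it had 18 and 12 counts with sh-SH2D1A, against 28 and 55 counts with sh-NC, a log2 change of -1.53 ± 0.45 that did not pass (adjusted p = 0.0573). DESeq2 called it (adjusted p = 0.0412), as did edgeR without sh-NC replicate 1 (adjusted p = 0.0261) and where at least 10 counts were asked of each library in 1 group (adjusted p = 0.0499). TRDC (ENSG00000211829, chr14:22462932-22465787, plus strand), the delta constant gene, had 0 counts in all 16 libraries and did not enter any test. By counting error this allows up to 0.0888 to 0.110 CPM, not scaled by TMM. All 10 variable, diversity and joining segments of the delta locus also had 0 counts.

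**Figure D3:**
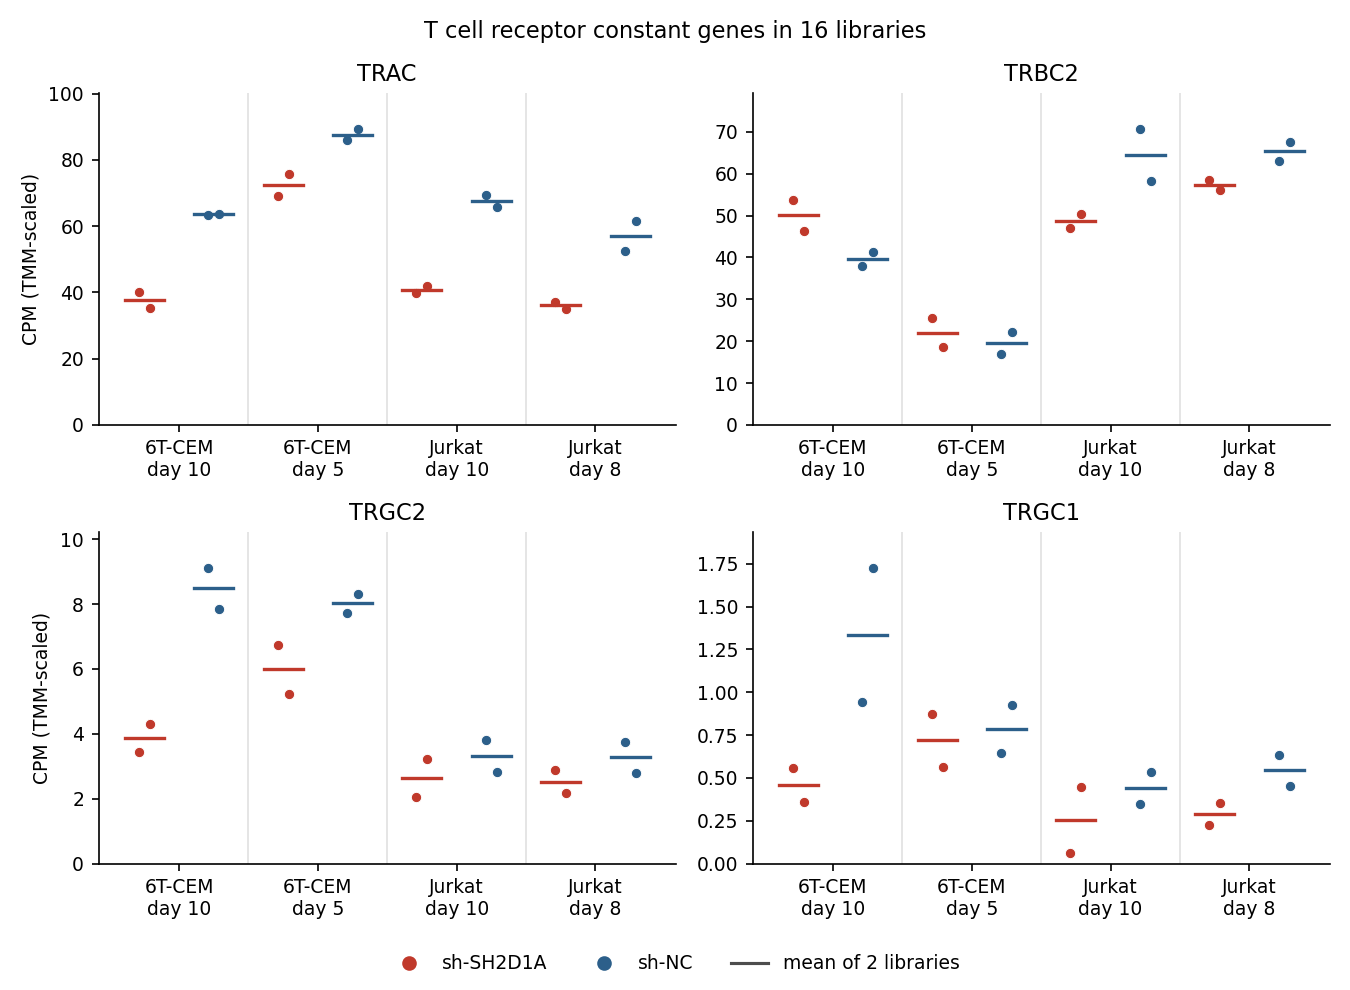
CPM of TRAC, TRBC2, TRGC2 and TRGC1 in each library, by line and day, with sh-SH2D1A in red left of sh-NC in blue and a line at the mean of 2 libraries. TRAC is lower with sh-SH2D1A at every line and day, and TRBC2 is higher with sh-SH2D1A in 6T-CEM at day 10 and lower in Jurkat.

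Of the 7 members that passed the filter on low counts (all but TRDC), 1 was called higher (TRBC2) and 2 lower (TRAC and TRGC2) at 6T-CEM day 10, with IGLL1 given as a description. There 14.0% of 19610 tested genes were called, 6.61% higher and 7.42% lower. At 6T-CEM day 5 none of the 6 tested members was called by edgeR, where 2.11% of 19482 genes were called, 0.606% higher and 1.51% lower. There 0 of the 6 had an unadjusted p under 0.05, and DESeq2 called 0 of 5. In Jurkat at day 10, 1 member was called higher (PTCRA) and 2 lower (IGLL1 and TRAC), where 3.78% of 19079 genes were called, 1.26% higher and 2.52% lower. In Jurkat at day 8 the same 3 genes were called in the same directions, where 12.4% of 19266 genes were called, 5.23% higher and 7.13% lower. None of the members was called by edgeR in the 3 differences between knockdown changes, where 0.681% of genes were called between the days of 6T-CEM (0.404% positive and 0.277% negative), 0.00454% between the days of Jurkat, all negative, and 0.812% between the lines at day 10 (0.295% positive and 0.517% negative). At an unadjusted p under 0.05 each of these differences had 1 member, TRAC, IGLL1 and TRBC2 in that order, and DESeq2 called TRAC in the first, none in the second and TRBC2 in the third. With no filter on low counts no gene at all was called in Jurkat at day 10, and the calls of IGLL1 (adjusted p = 0.301), PTCRA and TRAC (adjusted p = 0.177 each) went with the rest.

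**Figure D4:**
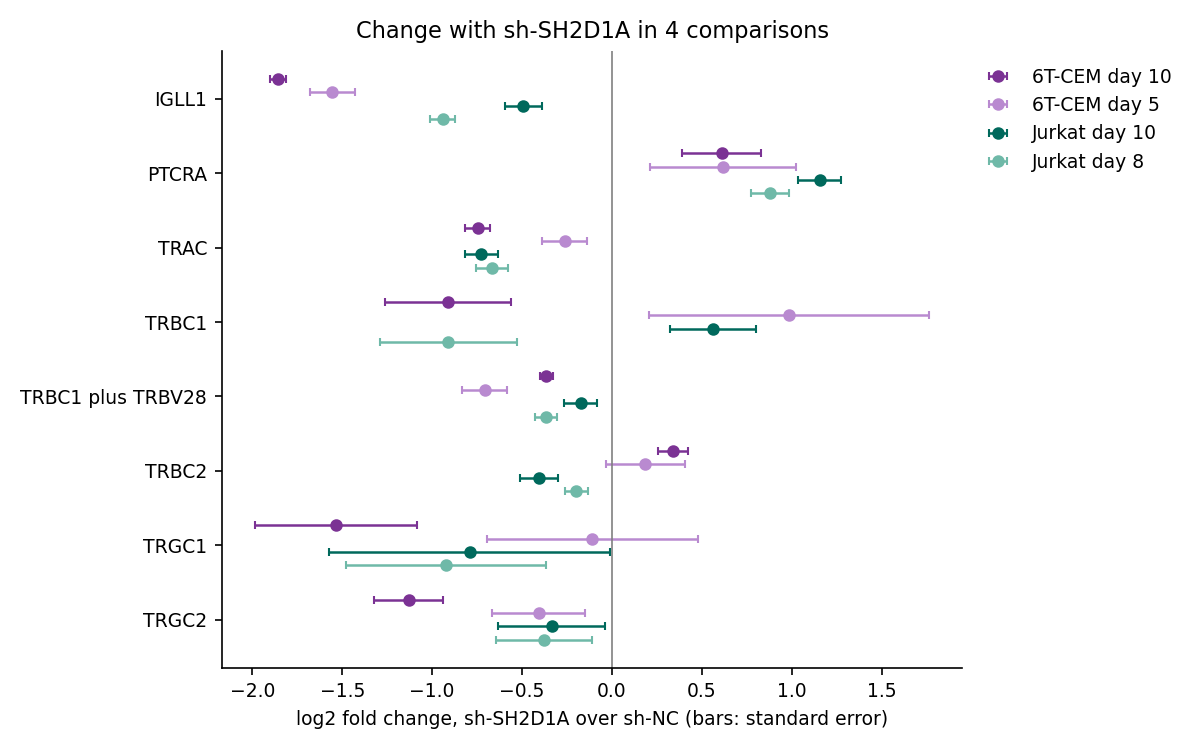
Log2 fold change of sh-SH2D1A over sh-NC with its standard error for 7 members and for the sum of TRBC1 and TRBV28, in 4 comparisons shown by colour. IGLL1 lies between -1.86 and -0.49 and TRAC between -0.75 and -0.26, PTCRA lies between 0.61 and 1.16, and TRBC1 alone lies on both sides of 0 with wide bars.

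The members also differed between the lines with the control hairpin. Per kilobase of annotated exon, in CPM per kb, IGLL1 led in 6T-CEM with sh-NC, at 158 ± 3.22 at day 10 and 148 ± 5.23 at day 5 (SD, n = 2). TRBC1 alone had 150 ± 1.41 per kb there at day 10 and 31.0 ± 38.2 at day 5. These orders leave out the TRBV28 counts, so the place of TRBC1 in them, and the lead of IGLL1 over it, is uncertain. In Jurkat with sh-NC TRBC1 led, at 229 per kb at day 10, followed by TRBC2 at 85.1, IGLL1 at 79.9, TRAC at 69.3, PTCRA at 23.0, TRGC2 at 3.28 and TRGC1 at 0.162. The libraries of TRBC2 and IGLL1 overlapped, and those of the other neighbours in that order did not. In 6T-CEM with sh-SH2D1A at day 10 the order was TRBC1 at 79.8 per kb, TRBC2 at 66.0, IGLL1 at 43.5, TRAC at 38.7, PTCRA at 5.73, TRGC2 at 3.82 and TRGC1 at 0.168, and only TRBC1 and TRBC2 overlapped. TRAC made up 21.4 to 72.2% of the constant gene counts of a 6T-CEM library and 9.25 to 23.3% of those of a Jurkat library, a share that moves with the unsteady counts of TRBC1.

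With sh-NC at day 10, 1 of 6 tested members was called higher in 6T-CEM than in Jurkat (TRGC2) and 2 lower (PTCRA and TRBC2), where 36.6% of 22032 genes were called, 18.2% higher and 18.4% lower. IGLL1 had 140 and 145 CPM in 6T-CEM and 77.8 and 66.7 CPM in Jurkat, a log2 difference of 0.98 ± 0.08. It is given without a test, since these 6T-CEM libraries are one arm of the comparison that chose the gene. PTCRA had 3.53 and 5.24 CPM in 6T-CEM and 29.4 and 24.3 CPM in Jurkat, or -2.61 ± 0.26 (adjusted p = 2.26e-06). The lines did not overlap for either gene. These sh-NC libraries also serve the day 10 knockdown comparisons.

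TRBC2 was lower in 6T-CEM, with a log2 difference of -0.70 ± 0.15 (adjusted p = 0.0017), and TRGC2 higher, at 1.35 ± 0.27 (adjusted p = 0.00114). TRGC1 did not pass at 1.59 ± 0.61 (adjusted p = 0.0538), but did with only the groups compared in the fit (adjusted p = 0.0231) and where at least 10 counts were asked of each library in 1 group (adjusted p = 0.045). The sum of TRBC1 and TRBV28 was lower in 6T-CEM, at -2.01 ± 0.09 (adjusted p = 7.38e-10), while TRBC1 alone did not pass at -0.61 ± 0.69 (adjusted p = 0.531). TRBC1 passed with only the groups compared in the fit, at -0.60 (adjusted p = 0.00174), and with the mean of both days of each line, at -2.06 (adjusted p = 0.00374). TRAC did not pass, at -0.09 ± 0.09 (adjusted p = 0.482). With the mean of both days of each line it was higher in 6T-CEM, at 0.27 ± 0.06 (adjusted p = 0.00286). Each line and day is a table of its own, so handling that differed between tables cannot be told apart from line or day.

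Between the days of 6T-CEM with sh-NC, libraries that the knockdown comparisons also use, 3 members were higher at day 10 than at day 5 (PTCRA, TRBC1 and TRBC2) and 1 lower (TRAC), where 39.9% of genes were called, 19.3% higher and 20.6% lower. TRBC2 had 37.9 and 41.3 CPM at day 10 and 17.02 and 22.1 CPM at day 5, a log2 difference of 1.02 ± 0.15 (adjusted p = 0.000107). TRAC had 63.4 and 63.8 CPM at day 10 and 86.0 and 89.3 CPM at day 5, or -0.46 ± 0.09 (adjusted p = 0.000877). PTCRA differed by 0.89 ± 0.29 (adjusted p = 0.0234), a call lost without the day 10 replicate 2 (adjusted p = 0.216) or the day 5 replicate 2 (adjusted p = 0.135). The TRBC1 difference of 2.27 ± 0.75 (adjusted p = 0.0259) was 0.08 ± 0.09 for its sum with TRBV28 (adjusted p = 0.507). The TRBC1 call was lost without the day 5 replicate 2 (1.38, adjusted p = 0.108) and without either day 10 library (adjusted p = 0.0703 and 0.0678).

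IGLL1 stayed within 131 to 145 CPM in the 6T-CEM sh-NC libraries, with a log2 difference between the days of 0.09 ± 0.08, likewise without a test. Between day 10 and day 8 of Jurkat with sh-NC none of the 7 members was called by edgeR, where 3.40% of genes were called (1.83% higher and 1.57% lower), and 3 had an unadjusted p under 0.05 (IGLL1, PTCRA and TRAC). PTCRA had 29.4 and 24.3 CPM at day 10 and 14.4 and 15.7 CPM at day 8, a log2 difference of 0.83 ± 0.23 (adjusted p = 0.0693). IGLL1 differed by 0.32 ± 0.08 (adjusted p = 0.0511). DESeq2 called both genes (adjusted p = 0.00389 for PTCRA and 0.00655 for IGLL1).

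The most abundant variable segments of each locus were the same genes in both lines. At least 10 counts in both libraries of a group were found for 8 of 54 TRAV genes in each line, for 4 of 64 TRBV genes in 6T-CEM and 5 in Jurkat, and for 7 of 12 TRGV genes in 6T-CEM and 6 in Jurkat. The 3 most abundant were TRAV8-4, TRAV18 and TRAV19, TRBV28, TRBV12-3 and TRBV12-4, and TRGV5, TRGV3 and TRGV4 in both lines. TRAJ3 was the only one of 60 TRAJ genes that reached this level, in both lines. TRAV8-4, TRAJ3 and TRBV12-3 are known as the segments of the Jurkat receptor. TRBV12-3 and TRBV12-4 share 42.5% of their stretches of 50 bases, so their split is uncertain. Gene counts do not show which segments were joined, and whether 6T-CEM libraries hold cells of another line, alone or in a mixture, was not tested. That question bears on every comparison of 6T-CEM with Jurkat. With sh-NC at day 10 the lines differed in other genes, such as DNTT at -6.71 on the log2 scale.

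TRAV8-4, the alpha segment with the most counts, fell in 2 of the 3 comparisons in which TRAC fell. At 6T-CEM day 10 its log2 change was -0.82 ± 0.11 (adjusted p = 0.00201) and at Jurkat day 8 -0.62 ± 0.12 (adjusted p = 0.0163). The Jurkat day 8 call was lost without sh-SH2D1A replicate 1 (adjusted p = 0.078) or with no filter on low counts (adjusted p = 0.0642). The values of -0.34 ± 0.18 at 6T-CEM day 5 (adjusted p = 0.389) and -0.49 ± 0.12 at Jurkat day 10 (adjusted p = 0.0532) did not pass, though DESeq2 called that of Jurkat day 10 (adjusted p = 0.027). TRBV12-3 fell at 6T-CEM day 10 (log2 change -0.43 ± 0.09, adjusted p = 0.013), a call lost without sh-SH2D1A replicate 1 (adjusted p = 0.0602) or with no filter (adjusted p = 0.0552), and did not pass by edgeR in the other 3 comparisons, at -0.15, -0.20 and -0.22. The last of these, at Jurkat day 8, was called by DESeq2 (adjusted p = 0.0411) and by edgeR without sh-NC replicate 1 (adjusted p = 0.0109). With sh-NC at day 10 TRBV12-3 was lower in 6T-CEM than in Jurkat, at -2.37 ± 0.08 (adjusted p = 3.76e-11), beside -2.01 for the sum of TRBC1 and TRBV28. TRAV8-4 did not pass there, at 0.22 ± 0.13 (adjusted p = 0.211).

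**Figure D5:**
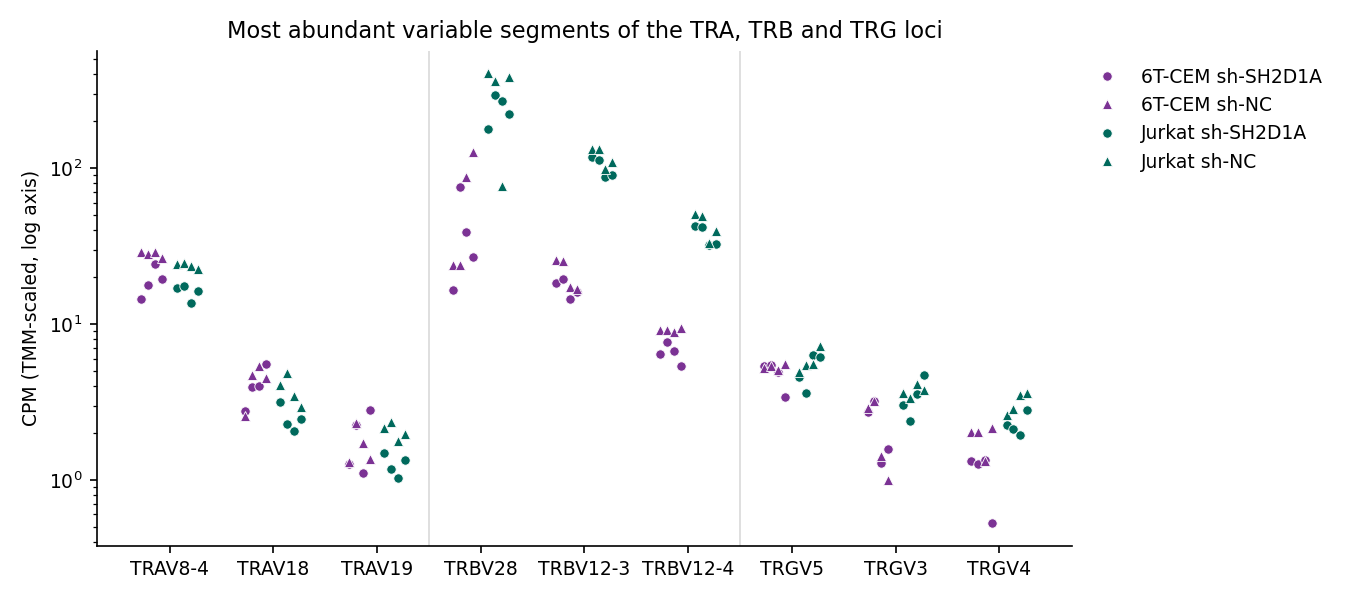
CPM on a log axis of the 3 most abundant variable segments of the TRA, TRB and TRG loci in every library, with 6T-CEM in purple left of Jurkat in green, circles for sh-SH2D1A and triangles for sh-NC. TRAV8-4 lies between 13.7 and 29.2 CPM in both lines, while TRBV12-3 lies between 14.4 and 25.6 CPM in 6T-CEM and between 87.9 and 133 CPM in Jurkat.

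The CD3 chains carry the receptor to the surface and signal for it. At 6T-CEM day 10, 2 of 4 fell, CD3D (log2 change -0.47 ± 0.04, adjusted p = 0.000233) and CD247, the zeta chain (-0.41 ± 0.06, adjusted p = 0.00314), and CD3G rose by 0.17 ± 0.03 (adjusted p = 0.0108). The CD3G call was lost without sh-NC replicate 1 (adjusted p = 0.0537) or replicate 2 (adjusted p = 0.0637). With all 16 libraries in the fit the calls of CD247 (adjusted p = 0.0513) and CD3G (adjusted p = 0.424) were lost. The list's median was -0.25, against 0.00 over all tested genes, of which 6.61% were called higher and 7.42% lower. At Jurkat day 8, 3 of 4 fell: CD247 (-0.49 ± 0.07, adjusted p = 0.00436), CD3D (-0.25 ± 0.06, adjusted p = 0.0321) and CD3E (-0.18 ± 0.05, adjusted p = 0.0481). Of all tested genes 5.23% were called higher there and 7.13% lower. The CD3D call was lost without either sh-SH2D1A library, with no filter on low counts, with all 16 libraries in the fit and with a replicate block (adjusted p between 0.0578 and 0.205). The CD3E call was lost in these fits and in 3 others (adjusted p between 0.051 and 0.312): without sh-NC replicate 2, with DESeq2's size factors, and with at least 10 counts asked of each library in 1 group. None passed by edgeR at 6T-CEM day 5 or Jurkat day 10, where the medians were -0.04 and -0.26, 2 and 4 chains had an unadjusted p under 0.05, and DESeq2 called 2 and 3. Of all tested genes edgeR called 2.11% and 3.78% there. For CD3D and CD247 the arms did not overlap in any of the 4 comparisons, with sh-SH2D1A the lower, and for CD3G they did not overlap either, with sh-SH2D1A the higher. The arms of CD3E overlapped at 6T-CEM day 5. How many of all genes had arms apart in this way was not counted, so this is a description. With sh-NC at day 10, CD3D, CD3E and CD247 were lower in 6T-CEM than in Jurkat, at -0.80, -0.45 and -0.79, where 18.2% of all tested genes were called higher and 18.4% lower.

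Most partners that IGLL1 has in a B cell precursor were at or near 0 counts. Of 13 genes of the surrogate light chain, the B cell receptor and the immunoglobulin loci, only CD79A and CD79B had enough counts to be tested in any comparison. They are the signalling chains of the B cell receptor. VPREB1, the partner chain of IGLL1, had at most 8 counts and VPREB3 at most 22 counts in a library. IGHM, the heavy chain constant gene, had at most 4 counts, and IGLC1, IGLC2, IGLC3 and IGLC7 were at 0 in all 16 libraries. CD79A had 28.1 and 24.9 CPM with sh-SH2D1A at 6T-CEM day 10, against 42.1 and 41.2 CPM with sh-NC, and fell (log2 change -0.65 ± 0.08, adjusted p = 0.0013). CD79B, at 0 to 82 counts, fell there (log2 change -1.09 ± 0.26, adjusted p = 0.0262), a call lost without any 1 of the 4 libraries (adjusted p between 0.0544 and 0.0983). In the other 3 comparisons no tested gene of the 2 passed by edgeR, and 0 had an unadjusted p under 0.05. CD79B, at 4 to 10 counts, was not tested at Jurkat day 8. DESeq2 gave an adjusted p to only 1 of the 2 genes in each of these 3 comparisons and called 0. For CD79A the sh-SH2D1A libraries lay below the sh-NC libraries in all 4 comparisons. At Jurkat day 10 this was narrow, with 61.1 CPM in sh-SH2D1A replicate 1 and 61.7 CPM in sh-NC replicate 2. How many of all genes had arms apart was not counted, so this is a description.

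The recombination genes did not all move one way. RAG1 and RAG2, the recombinase that joins receptor segments, rose at 6T-CEM day 10 (RAG1 by 1.35 ± 0.04, RAG2 by 0.80 ± 0.13), at Jurkat day 10 (2.11 ± 0.14 and 1.57 ± 0.15) and at Jurkat day 8 (1.83 ± 0.12 and 1.03 ± 0.13), with adjusted p between 1.78e-06 and 0.00584. DNTT, which adds bases at the joints, fell at 6T-CEM day 10 (log2 change -1.44 ± 0.29, adjusted p = 0.0127) and at Jurkat day 8 (-0.86 ± 0.06, adjusted p = 0.00039). At 6T-CEM day 10 DNTT was rare, with 35 and 56 counts with sh-SH2D1A, against 125 and 107 counts with sh-NC. In Jurkat it had 4500 to 11325 counts in a library. With no filter on low counts the 6T-CEM day 10 calls of RAG2 (adjusted p = 0.0621) and DNTT (adjusted p = 0.0811) were lost, as was every call at Jurkat day 10. At 6T-CEM day 5 only RAG1 passed, at 0.91 ± 0.12 (adjusted p = 0.00716), a call lost without sh-NC replicate 1 (adjusted p = 0.0545). With sh-NC at day 10 DNTT was lower in 6T-CEM (-6.71 ± 0.14, adjusted p = 6.27e-13) and RAG1 higher (2.62 ± 0.12, adjusted p = 1.05e-09).

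Of 29 tested transcription factors known from receptor, PTCRA or surrogate light chain genes, 6 rose and 11 fell at 6T-CEM day 10, with a median of -0.13, against 0.00 over all tested genes, of which 14.0% were called. MYB fell (log2 change -0.63 ± 0.03, adjusted p = 8.84e-06), GATA3 (-0.66 ± 0.04, adjusted p = 4.38e-05) and TAL1, a driver of T cell leukaemia (-0.50 ± 0.04, adjusted p = 0.000127), and ID3, an inhibitor of E proteins, rose by 0.62 ± 0.04 (adjusted p = 5.83e-05). At 6T-CEM day 5, where 2.11% of all genes were called, 2 rose, ID3 by 0.85 ± 0.15 (adjusted p = 0.0254) and ID2 by 1.36 ± 0.28 (adjusted p = 0.0408). Both calls were lost without sh-NC replicate 1 (adjusted p = 0.169 for ID3 and 0.124 for ID2), and that of ID3 also without sh-NC replicate 2 (adjusted p = 0.0643). At Jurkat day 10, 2 rose and 1 fell, where 3.78% of all genes were called, and at Jurkat day 8, 2 rose and 3 fell, where 12.4% were. TCF7, a T cell identity factor, rose in Jurkat by 0.50 ± 0.07 at day 10 (adjusted p = 0.00439) and 0.52 ± 0.05 at day 8 (adjusted p = 0.00104). GATA3 fell at Jurkat day 8 (log2 change -0.47 ± 0.06, adjusted p = 0.00419). ETS2 rose at both days, NOTCH1 fell at day 10 and HES1, a target of NOTCH signalling, fell at day 8. The calls of NOTCH1, of HES1 and of ETS2 at day 8 were each lost in 2 or 3 of the 4 fits that left out 1 library (adjusted p between 0.0566 and 0.101). The E protein genes TCF3, at 220 to 575 CPM, and TCF12, at 259 to 372 CPM, were well above the floor in every library. PAX5, a B cell factor, had at most 11 counts in a library.

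By Pearson correlation of log2 CPM over the 16 libraries, among 13794 genes, the 5 genes most like IGLL1 were NDEL1 (0.95), SLC25A43 (0.93), SPATA5 (0.93), RAB21 (0.92) and FBXO34 (0.92). Those most like PTCRA were REPIN1 (0.98), LINC01237 (0.98), DAB2IP (0.97), DGLUCY (0.97) and MKRN3 (0.97). Those most like TRAC were GNG2 (0.96), CYP4F2 (0.95), NMT2 (0.94), STT3B (0.94) and KDM6A (0.93). None of the other members was among them. The libraries fall into groups by line, day and hairpin, which all genes share, so these values describe likeness and carry no test.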

How the data were processed

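The 16 libraries were total RNA extracted with TRIzol and prepared with a TruSeq kit, per the labels' protocols. The deposited files are 4 tables of raw read counts per Ensembl gene, 1 for each line and day. HISAT2 2.2.0, StringTie and the build hg38 appear in the submitters' processing notes. How reads were counted, with which annotation and whether by strand, is not stated in the labels or headers. Without strand, reads from overlapping genes on opposite strands cannot be told apart.

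Of 64252 gene IDs, 40995 carried a symbol, and 56591 were found in GENCODE 29, which gave positions and exon lengths. Totals ran between 27217899 and 33788024 counts. In R 4.3.3, edgeR 4.0.16 fitted quasi-likelihood models to the counts, with TMM scaling and filterByExpr at a minimum count of 10. Each knockdown comparison used its own 4 libraries, and the 6 other contrasts used 1 fit of 8 group means over all 16. P-values were adjusted by Benjamini-Hochberg over all genes tested, with a threshold of 0.05. The SE of a log2 change is its size over the square root of F. CPM are TMM-scaled. The scripts were tested on simulated data.

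The members and gene lists were chosen with earlier results of these data known. All 8 members are named, and from each list up to 4 called genes with the lowest adjusted p per comparison; SH2D1A, TRBV28, the segments beside the 3 most abundant, E protein genes and markers are named for description. Summing TRBC1 with TRBV28 was chosen after seeing the data. Alternatives were DESeq2 1.42.0 (its size factors and its Wald test), other filters, a replicate block, other sets of libraries in the fit and each library left out.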

Additional observations from a re-analysis of the deposited data

Results flagged for a closer look

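Differences between knockdown changes passed by edgeR, with all 16 libraries in the fit, as follows. Between the lines at day 10, 1 listed factor had a positive and 4 a negative difference, and 2 recombination genes a negative one. Between the 6T-CEM days 1 factor passed. No member passed, and DESeq2 called TRAC between the 6T-CEM days and TRBC2 between the lines. At most 4 factors per comparison are named, those with the lowest adjusted p, so not all are given below. At day 10 the log2 change in 6T-CEM minus that in Jurkat was -1.18 ± 0.22 for DNTT (adjusted p = 0.0189), -0.76 ± 0.16 for RAG1 (adjusted p = 0.0385), -0.75 ± 0.10 for MYB (adjusted p = 0.00133), -0.63 ± 0.09 for TCF7 (adjusted p = 0.00428), 0.92 ± 0.15 for ID3 (adjusted p = 0.00889) and -0.54 ± 0.09 for GATA3 (adjusted p = 0.0121), by edgeR's quasi-likelihood test. In 6T-CEM the change at day 10 minus that at day 5 was 1.24 ± 0.17 for NOTCH3 (adjusted p = 0.00702), which was lost with only the groups compared in the fit (adjusted p = 0.108). SH2D1A itself fell less at 6T-CEM day 10 than at 6T-CEM day 5 or Jurkat day 10, and these differences were not adjusted for that. Over the 8 fits that left out 1 library, the MYB difference kept its call (adjusted p between 0.00449 and 0.0127). Those of DNTT and RAG1 were each lost in 6 of 8, at values between -1.51 and -0.88 and between -0.93 and -0.60, that of GATA3 in 7 and that of ID3 in 4. The TCF7 difference was lost without 6T-CEM day 10 sh-NC replicate 2 (adjusted p = 0.057).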

How the results depend on the processing

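The count of called genes moved by over 1.5 times as follows; the cause was not tested. For 6T-CEM day 10 (2752 genes) it was 1099 with no filter on low counts and 916 with all 16 libraries in the fit. For 6T-CEM day 5 (412) it was 1118 with DESeq2, 3108 with all 16 libraries and 298 to 2865 with 1 library left out. For Jurkat day 10 (721) it was 0 with no filter, where 3533 genes had an unadjusted p under 0.05. DESeq2 with the filter called 1054 genes there, a move within 1.5 times. For Jurkat day 8 (2381) it was 873 with no filter, 1323 with all 16 libraries and 633 to 2978 with 1 left out. For the days of Jurkat with sh-NC (749) it was 1542 with DESeq2 and 94 to 335 with 1 left out. For the difference between the 6T-CEM days (150) it was 611 with DESeq2, 1 with only the groups compared and 24 to 1684 with 1 left out. For that between the Jurkat days (1) these were 57, 4 and 0 to 7, and 3 with no filter. For that between the lines (179) they were 423, 358 and 67 to 113.

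The labels do not say whether same-numbered libraries were paired. Their deviations correlated weakly, at 0.0303 to 0.0808 over 15989 genes, which does not settle it. A replicate block gave 2188 called genes at 6T-CEM day 5 and 1423 at Jurkat day 10, and with it TRBC1 passed at 6T-CEM day 10 (-1.05, adjusted p = 0.0366) and day 5 (1.74, adjusted p = 0.0316), TRBC2 and TRAV8-4 at Jurkat day 10 (adjusted p = 0.0406 and 0.0344) and IGLL1 between the Jurkat days (adjusted p = 0.047). CD3D and CD3E at Jurkat day 8 were lost (adjusted p = 0.0578 and 0.114). The block changed no other call of a named gene.

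IGLL1 stayed between -1.88 and -1.84 at 6T-CEM day 10 and between -1.62 and -1.49 at day 5 with 1 library left out. Signs turned among weak changes with 1 left out: at 6T-CEM day 5 PTCRA (-0.056 to 1.07), TRBC2 (-0.063 to 0.40) and TRGC1 (-0.46 to 0.17), at Jurkat day 10 TRBC1 (-0.022 to 0.97) and TRGC1 (-2.68 to 0.017), between the 6T-CEM days TRGC2 (-0.023 to 0.22), and between the Jurkat days TRBC1 (-1.18 to 0.25), TRBC2 (-0.17 to 0.11) and TRGC2 (-0.21 to 0.25). Summing TRBV28 turned TRBC1 to -0.71 at 6T-CEM day 5, -0.17 at Jurkat day 10 and 0.15 between the Jurkat days. The mean of both days turned the TRAC difference between lines to 0.27. TRGC1 rests on 2 to 55 counts per library, PTCRA in 6T-CEM on 58 to 231 and DNTT in 6T-CEM on 35 to 258.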
